A study of Homo sapiens with 2 samples.

Results

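The mir-548 family was followed through small RNA bound to 2 Argonaute proteins in HEK293 T-Rex cells, a human embryonic kidney line that carries the tetracycline repressor. Its members were taken as every precursor in the count tables whose name begins with mir-548. This gave 67 precursors of 1038 in all (6.45%), together with the genomic read stacks that name them. The cells of 1 library expressed FLAG:AGO2 and those of the other expressed FLAG:AGO3, the same line and the same bead pulldown being used for both. With 1 library per protein no difference has a replicate check, and no test between the proteins was made. The labels do not give the promoter or level of the tagged proteins, the number of clones or cultures behind each library, or the Argonautes the cells still made of their own.

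A miRNA precursor is a hairpin that Drosha and Dicer cut to a short duplex, from which an Argonaute keeps a strand. Bases 2 to 8 of that strand, the seed, do most of the pairing with target RNA. The mir-548 family is known as a primate-expanded family derived from MADE1, a short non-autonomous relative of the mariner transposons whose ends are inverted repeats of each other, so that a transcript through a copy can fold into a hairpin. Its copies are scattered over the genome, often in introns, and differ from each other by a few bases. AGO2 is the Argonaute best known for slicing its targets, and AGO3 is a close paralogue.

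Mature sequences from RefSeq (GRCh38.p14), matched by miRNA name, were used for 46 of the 67 precursors, 58 entries with 47 distinct sequences. A set of sequences that was left out is described with the processing. Capitals mark the seed here and in the next 2 sets. The first set is shown because its strands carry the seed AAAGUAA, which 10 of the 46 precursors share.
miR-548b-5p: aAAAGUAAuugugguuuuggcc
miR-548ar-5p: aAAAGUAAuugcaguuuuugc
miR-548y: aAAAGUAAucacuguuuuugcc
miR-548aq-5p: gAAAGUAAuugcuguuuuugcc
miR-548as-5p: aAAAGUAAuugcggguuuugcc
miR-548w: aAAAGUAAcugcgguuuuugccu
miR-548ab: aAAAGUAAuuguggauuuugcu

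Strands of the 3′ arm are shown next because most of them carry the seed AAAAACU, also found in 10 precursors, and because the first belongs to the most abundant member, mir-548b.
miR-548b-3p: cAAGAACCucaguugcuuuugu
miR-548aq-3p: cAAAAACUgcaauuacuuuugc
miR-548am-3p: cAAAAACUgcaguuacuuuugu
miR-548ae-3p: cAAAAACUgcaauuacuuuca
miR-548j-3p: cAAAAACUgcauuacuuuugc
miR-548ar-3p: uAAAACUGcaguuauuuuugc
miR-548o-3p: cCAAAACUgcaguuacuuuugc

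The next set is shown because its strands belong to members with large differences between the proteins. Those differences are of counts over the whole hairpin and not of the strand shown. For mir-548e the 5′ strand shown lies on the side with fewer pooled stack reads (2424 against 5398). mir-548h-5 and mir-548aa-2, also much lower with AGO3, have no mature sequence here. The first 5 strands come from precursors that took a smaller share of the AGO3 library, and the last 2 from precursors that took a larger one.
miR-548e-5p: cAAAAGCAaucgcgguuuuugc
miR-548ac: cAAAAACCggcaauuacuuuug
miR-548l: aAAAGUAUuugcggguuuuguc
miR-548c-3p: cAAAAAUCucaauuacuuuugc
miR-548n: cAAAAGUAauuguggauuuugu
miR-548ad-3p: gAAAACGAcaaugacuuuugca
miR-548u: cAAAGACUgcaauuacuuuugcg

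Stretches of 3 RefSeq hairpins are shown because they make the inverted repeat visible. Each runs from the first base of its 5′ strand to the last base of its 3′ strand, with both strands in capitals and the loop in lower case.
mir-548ar: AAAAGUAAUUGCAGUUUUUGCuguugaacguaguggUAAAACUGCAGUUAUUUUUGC
mir-548as: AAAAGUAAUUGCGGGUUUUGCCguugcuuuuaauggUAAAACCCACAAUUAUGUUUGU
mir-548at: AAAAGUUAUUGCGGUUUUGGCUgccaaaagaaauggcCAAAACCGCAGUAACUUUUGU

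The strands of the family are alike in their letters. The letters AAAAGU occurred in 40.4% of the 47 distinct mir-548 sequences, against 0.261% of the 2299 other distinct mature sequences in the same table. ACUUUU, the reverse complement of those letters, occurred in 34.0% against 0.565%, and 74.5% of the mir-548 sequences held either motif, against 0.826%. Both motifs were searched on the miRNA strand only. They were not planned beforehand and occur in the family's own strands shown above, so these shares describe the family and test nothing. A median of 65% of the bases of a mir-548 sequence were A or U, against 47.8% in the others. The first base was A in 46.8% and U in 17.0% of the mir-548 sequences, whereas in the others U (37.4%) was more frequent than A (27.3%). When the 2 arms of a hairpin were laid against each other without gaps, a median of 83.4% of the shorter arm formed Watson-Crick pairs over the 12 members with both arms listed. The range was 61.9% in mir-548j to 94.7% in mir-548f-1, and the median of 794 other precursors was 63.6%, with quartiles of 54.5% and 72.7%. Of the 47 sequences, 40 belonged to a single precursor, and the 28 seeds fell into 7 shared by several precursors and 21 found in 1.

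The family took a small share of both libraries, and a smaller one with AGO3. Of 6674064 AGO2 reads 3485257 (52.2%) were counted on precursors, and of 4667236 AGO3 reads 3055417 (65.5%). The family had 14606 counts in the AGO2 library, 0.419% of the precursor counts with a 95% interval of 0.412% to 0.426%. It had 9618 counts in the AGO3 library, 0.315% (0.309% to 0.321%). The log2 ratio of these shares, AGO3 over AGO2, was −0.41 (−0.45 to −0.38). Intervals are exact (Clopper-Pearson) and cover counting error only, since the reads are not known to be independent molecules. The direction was the same under the 4 scalings tried, and the size was not. Scaled to all reads of a library, of which a larger part fell on precursors with AGO3, the shares were 0.219% and 0.206% and the log2 ratio −0.087. It was −0.60 by median-of-ratios and −0.57 by TMM scaling. The proteins also differ in the 3′ adapter of their library, per the labels, and the part of adapter, mapped share and protein in the difference cannot be told apart.

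Lists of miRNAs known from other cells were checked beside this. All 6 precursors of the list for this kidney line (mir-10a, mir-10b, the mir-196 copies and mir-615) were counted, together 5.31% of AGO2 counts and 6.27% of AGO3 counts. The hepatocyte list (mir-122) had 1 and 2 counts. The muscle list (5 of 6 counted, mir-206 at 0) had 60 and 114, and the pluripotent cell list (5 of 8 counted, mir-302d, mir-372 and mir-373 at 0) had 8 and 4. The blood list (4 of 5 counted, mir-223 at 0) had 335 and 228 counts, the fibroblast and smooth muscle list (both precursors) 1333 and 1783. The neuron list (mir-9 and mir-124, 6 of 6) took 0.274% and 0.303%. The part of other cell types in the family's values was not tested.

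All but 1 of the members were counted in both libraries, a share that was not worked out over all precursors. The excepted member, mir-548aj-1, had 2 AGO2 counts and 0 AGO3 counts, where an absence of counts still leaves room for 3 counts (9.82e-05% of the AGO3 total). A few members carried most of the family. The most abundant, mir-548b, made up 22.6% of its counts over both libraries, the first 3 members 42.4% and the first 10 members 70.1%. Even mir-548b ranked only 119th among all precursors in the AGO2 library and 152nd in the AGO3 library. A member had a median of 104 counts over both libraries, against 45 for all precursors.

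The difference between the proteins was shared by most of the well counted members. Among the 35 members with at least 100 counts over both libraries, which hold 94.3% of the family's counts, 28 (80%) had a ratio below 0 and 7 above, against 192 of all 411 precursors with as many counts (46.7%) below 0. Their median log2 ratio was −0.48 with quartiles of −0.97 and −0.09, against a median of 0.08 and quartiles of −0.52 and 0.70 over all 411. The standard deviation of the ratios was 0.66 among members and 1.02 among all. None of the 35 was at least 2-fold higher with AGO3, where 15.8% of all 411 were. At least 2-fold lower were 9 of the 35 (25.7%), where 8.76% of all were, which puts the members' share above the background on the lower side and below it on the higher side. The counting interval lay wholly above equal shares for 3 members (8.57%), against 45.3% of all precursors. It lay wholly below for 21 members (60.0%), against 39.4%, and covered equal shares for the other 11, against 63 of all 411. Whether an interval excludes equal shares depends on depth, for which members and all precursors were not matched. All precursors here include the members themselves.

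**Figure D1:**
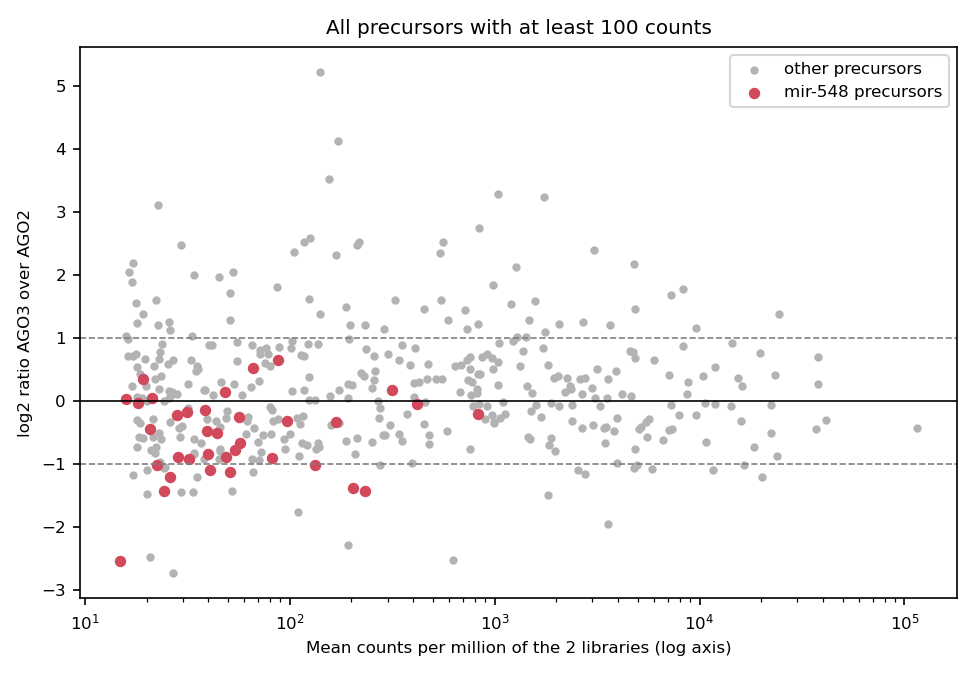
Log2 ratio of AGO3 over AGO2 shares (vertical axis) against the mean CPM (counts per 1000000 precursor counts) of the 2 libraries (horizontal log axis) for the 411 precursors with at least 100 counts. Each point is 1 precursor, members in red and the others in grey. Dashed lines mark a 2-fold difference. The red points lie mostly below 0, with a median of −0.48 against 0.08 for all points, and none reaches the upper dashed line.

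The scaling moves every ratio by the same amount. Median-of-ratios and TMM scaling shifted the median of all precursors by −0.19 and −0.16, and scaling to all reads shifted it by 0.33. Relative to that median, the members' median was between −0.57 and −0.56 under all 4 scalings. The count of members at least 2-fold lower was 14 of 35 (40%) under median-of-ratios scaling, against 13.4% of all precursors, and also 14 under TMM scaling, against 12.7%. Scaled to all reads it was 4 of 35 (11.4%), against 3.89%. Ratios below 0 were found in 32 of the 35 members by median of ratios, against 55.5% of all precursors, in 31 by TMM, against 53.8%, and in 21 scaled to all reads, against 33.3%.

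Values of the most abundant members show that their ratios were not alike. mir-548b had 3113 AGO2 counts, or 893 CPM, and 2359 AGO3 counts, or 772 CPM. Its log2 ratio was −0.21 (−0.29 to −0.13). mir-548e, with 1029 and 347 counts, had a lower ratio of −1.38 (−1.56 to −1.20), and mir-548ar had 622 and 269 counts and a ratio of −1.02 (−1.23 to −0.81). The counting intervals of mir-548e and mir-548ar overlap narrowly and neither reaches that of mir-548b. mir-548b and mir-548ar share the seed AAAGUAA shown above on their 5′ strands, but the counts cover the whole hairpin. In the pooled stacks 99.3% of the mir-548b reads lay on the 3′ side, which has another seed. The ratios thus do not compare strands with a shared seed. mir-548t lay near mir-548b, at 108 CPM in the AGO2 and 86.4 CPM in the AGO3 library and −0.33 (−0.56 to −0.10).

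With copies summed by letter, mir-548d and mir-548aa were the next most abundant after mir-548b, and their single copies had unlike ratios. mir-548d-2 had 1482 and 1258 counts and a log2 ratio of −0.05 (−0.16 to 0.06). mir-548d-1 had 651 and 453 counts and −0.33 (−0.51 to −0.16). mir-548aa-1 had 1039 and 1025 counts and 0.17 (0.04 to 0.30), a value that was −0.02 under median-of-ratios scaling. mir-548aa-2 had 1184 and 385 counts and −1.43 (−1.60 to −1.26), so the 2 numbered copies of mir-548aa lay on different sides of 0 with intervals far apart. RefSeq lists mir-548d-1 and mir-548aa-1 at a shared interval, and likewise mir-548d-2 and mir-548aa-2. The labels do not say how a read that matches several precursors was counted, so these 4 counts may not be each precursor's own. Summed over the shared interval, the pair of mir-548d-1 and mir-548aa-1 had 1690 and 1478 counts and a ratio of −0.00 (−0.11 to 0.10). The pair of mir-548d-2 and mir-548aa-2 had 2666 and 1643 counts and −0.51 (−0.60 to −0.42). The 4 together made up 30.9% of the family's counts, with a ratio of −0.29 (−0.36 to −0.22).

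Another such pair is mir-548c and mir-548z. In the stack list the stack of mir-548c also carries the name of mir-548z, on the opposite strand, and mir-548z has no stack on its own strand. mir-548c had 246 and 98 counts and a log2 ratio of −1.13 (−1.49 to −0.79), and mir-548z had 239 and 122 counts and −0.78 (−1.11 to −0.46). Their intervals overlap, and summed they had a ratio of −0.95 (−1.19 to −0.72).

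Among members with at least 100 counts, mir-548ad and mir-548v had, beside mir-548aa-1, intervals wholly above equal shares. mir-548ad had 239 AGO2 counts and 328 AGO3 counts, and a ratio of 0.65 (0.40 to 0.89). mir-548v had 189 and 238 counts and 0.52 (0.24 to 0.81). Neither reached a 2-fold difference. Ratios above 0 with intervals that cover it were found in mir-548ab (59 and 66 counts, 0.35), mir-548o-2 (160 and 154), mir-548h-2 (73 and 66) and mir-548s (55 and 49). Under both median-of-ratios and TMM scaling all but mir-548ab of these 4 were below 0.

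**Figure D2:**
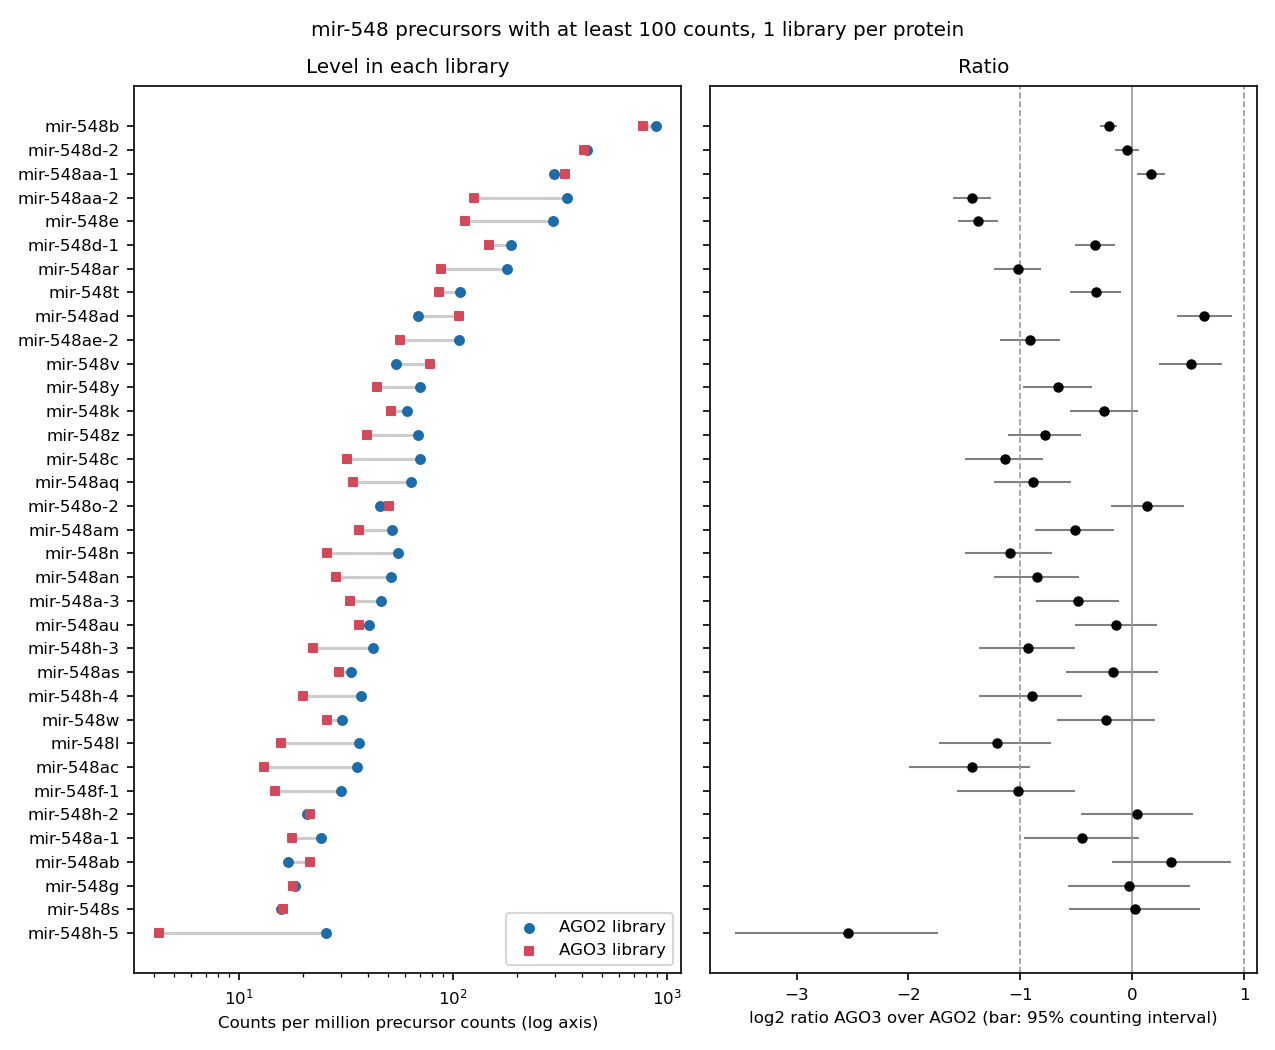
Left, level of each member with at least 100 counts in the AGO2 library (blue circles) and the AGO3 library (red squares), in CPM on a log axis, ordered by total counts. Right, log2 ratio of AGO3 over AGO2 with its 95% counting interval, dashed lines marking a 2-fold difference. The lowest point is mir-548h-5 at −2.54 and the highest mir-548ad at 0.65.

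The lowest ratio among the 35 was that of mir-548h-5, which had 89 AGO2 counts and 13 AGO3 counts and a log2 ratio of −2.54 (−3.55 to −1.74). It is 1 of 5 numbered copies, and the others did not lie as low. mir-548h-3 (148 and 68 counts) and mir-548h-4 (130 and 61) were at −0.93 and −0.90, and mir-548h-2 was at 0.04 (−0.46 to 0.54). Summed, the 5 copies had 476 and 231 counts and a ratio of −0.85 (−1.09 to −0.62). The remaining members at least 2-fold lower were mir-548ac, with 124 and 40 counts and −1.43 (−1.99 to −0.92), mir-548l, with 127 and 48 counts and −1.21 (−1.72 to −0.72), mir-548n, with 193 and 79 counts and −1.09 (−1.50 to −0.71), and mir-548f-1, with 105 and 45 counts and −1.02. All 4 of these intervals include values less than 2-fold apart.

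A further group lay between −0.93 and −0.44 and was lower with AGO3 by less than 2-fold. It comprised mir-548ae-2 (371 and 173 counts, −0.91), mir-548aq (222 and 105, −0.89), mir-548an (179 and 87, −0.85), mir-548y (244 and 135, −0.66), mir-548am (181 and 111, −0.51), mir-548a-3 (161 and 101, −0.48) and mir-548a-1 (84 and 54, −0.44), beside mir-548z, mir-548h-3 and mir-548h-4 above. Of these only mir-548a-1 had an interval that covered equal shares. Close to equal shares, each with an interval covering them, were mir-548k (213 and 157 counts, −0.25), mir-548w (106 and 79, −0.23), mir-548as (116 and 90, −0.18), mir-548au (141 and 112, −0.14) and mir-548g (64 and 55, −0.03).

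The 32 members below 100 counts, with 2 to 92 counts and a median of 42, had 850 AGO2 and 524 AGO3 counts together. Their summed log2 ratio was −0.51 (−0.67 to −0.35). Of the 26 with at least 20 counts, 20 lay below 0 and 6 above, but 18 of the intervals covered 0, so that most of these differences were not detectable at this depth. The highest was mir-548u, with 17 AGO2 counts and 40 AGO3 counts and a ratio of 1.40 (0.57 to 2.34), and next among them was mir-548j (39 and 47, 0.45). The lowest was mir-548f-5, with 23 and 2 counts and −3.06 (−6.46 to −1.32), followed by mir-548ai (21 and 5, −1.79), mir-548ap (52 and 15, −1.57) and mir-548ag-1 (44 and 13, −1.54). The 6 members with fewer than 20 counts had 28 and 27 counts in all. From 20 counts up, well counted members included, 48 of 61 members (78.7%) lay below 0, against 285 of all 638 precursors (44.7%). The share of intervals covering 0 was not worked out over all precursors of such depth.

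Summing numbered copies leaves 47 lettered names, 31 of them with at least 100 counts. Of the 31, 26 lay below 0, 8 were at least 2-fold lower and 0 at least 2-fold higher with AGO3, and the median was −0.51. Over all 407 precursors counted in this way 190 lay below 0, 8.60% were at least 2-fold lower and 16.0% at least 2-fold higher. The 2 copies of mir-548d summed to −0.13 (−0.22 to −0.04) and those of mir-548aa to −0.47 (−0.56 to −0.37). The 5 copies of mir-548f summed to −1.09 (−1.53 to −0.67) and the 2 of mir-548o to 0.14 (−0.16 to 0.44).

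Grouped by seed, precursors with the same seed on an arm did not have the same ratio. A precursor with a mature sequence enters the group of each of its listed arms, since a count covers the whole hairpin. Only 46 of the 67 members have such a sequence here. Members without one, among them mir-548d-2 and mir-548aa-2, enter no group. Ratios of the strands that carry a seed thus cannot be given. The 10 precursors with AAAGUAA had 4609 and 3183 counts and a summed log2 ratio of −0.34 (−0.41 to −0.28). Of these 7792 counts mir-548b gave 5472. In the pooled stacks 99.3% of its reads lay on the 3′ side, whose strand carries another seed, AAGAACC. Inside that group the members with at least 100 counts ran from mir-548ar at −1.02 to mir-548ab at 0.35. The 10 with AAAAACU had 1004 and 517 counts and −0.77 (−0.92 to −0.61), and the 6 with AAAACUG had 783 and 335 counts and −1.03 (−1.22 to −0.85), of which mir-548ar gave most. The 4 with GCAAAAG summed to −0.86 (−1.17 to −0.57) and the 3 with AAGGUAA to −1.30 (−1.92 to −0.73). Nearest to equal shares were AAAGUAC, in mir-548k and mir-548av, at −0.30 (−0.60 to −0.01), and CAAAACU, in the copies of mir-548o, at 0.14. The last of these was the only shared seed above 0, with an interval of −0.16 to 0.44, and it was below 0 under median-of-ratios (−0.05) and TMM scaling.

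Other precursors from transposons were set beside the family. mir-579 and mir-570, which like mir-548 lie in MADE1 elements, had 152 and 109 counts and 105 and 78 counts, with log2 ratios of −0.29 (−0.66 to 0.07) and −0.24 (−0.68 to 0.20). With mir-603 (2 and 3 counts) they summed to −0.26 (−0.53 to 0.02), an interval that covers both equal shares and the family's own value. Of 32 counted precursors widely listed as lying in other transposons, 20 had at least 100 counts. Their median was 0.12, 8 of the 20 lay below 0, and 1 was at least 2-fold lower and 1 at least 2-fold higher. The most abundant were mir-374a (77379 and 33331 counts, −1.03), mir-151a (51140 and 42126, −0.09), mir-378a (34636 and 57220, 0.91) and mir-652 (29114 and 27658, 0.12). Summed, this list took 7.93% of AGO2 counts and 8.12% of AGO3 counts, a ratio of 0.03 that was −0.16 under median-of-ratios scaling. No test sets these lists apart from mir-548.

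The list of genomic read stacks shows where on the hairpin the reads lie, but in it the libraries are pooled. It holds 68649476 reads in 502547 stacks on build hg19, 6.05 times the reads of both count tables, and the labels do not say which libraries were pooled. In it 28 of the 67 members are named, in 37 stacks with 79000 reads, 0.115% of all stack reads (0.114% to 0.116%). All 28 lie on a MADE1 element. The other 39 members, with 50.5% of the family's table counts, are named in no stack on their own strand, among them mir-548d-1, mir-548d-2, mir-548aa-1 and mir-548aa-2. Of the 35 members with at least 100 counts, 48.6% have a stack, against 83.2% of the 376 other precursors with as many. All 37 stacks carry a mapping class whose name begins with UNIQ, a share that was not worked out over all stacks. The part of near-identical sequence in the missing stacks and in the stack reads per member was not tested.

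mir-548b dominates the stacks more than the tables. It had 59665 stack reads, 75.5% of the family's, and without it the family had 19335 stack reads, 0.0282% of all. mir-548e followed with 7822, mir-548k with 3276, mir-548ar with 1459, mir-548a-3 with 1217 and mir-548an with 1067. The next were mir-548v (934), mir-548l (888), mir-548j (534), mir-548ag-2 (474), mir-548u (466), mir-548n (365), mir-548f-1 (175), mir-548s (168) and mir-548aw (107). Per table count, mir-548b had 10.9 stack reads, and the 17 members with at least 100 counts and a stack had a median of 1.62, against 6.87 for other precursors. At the low end, mir-548h-5 had 102 table counts and 2 stack reads, mir-548as 206 and 6, mir-548c 344 and 10, and mir-548t 642 and 42. Over the 28 members Spearman's rho between table counts and stack reads was 0.56, and Pearson's r of their log10 values 0.66. The points may share reads with the tables and near-identical sequence with each other, so these are descriptions.

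**Figure D3:**
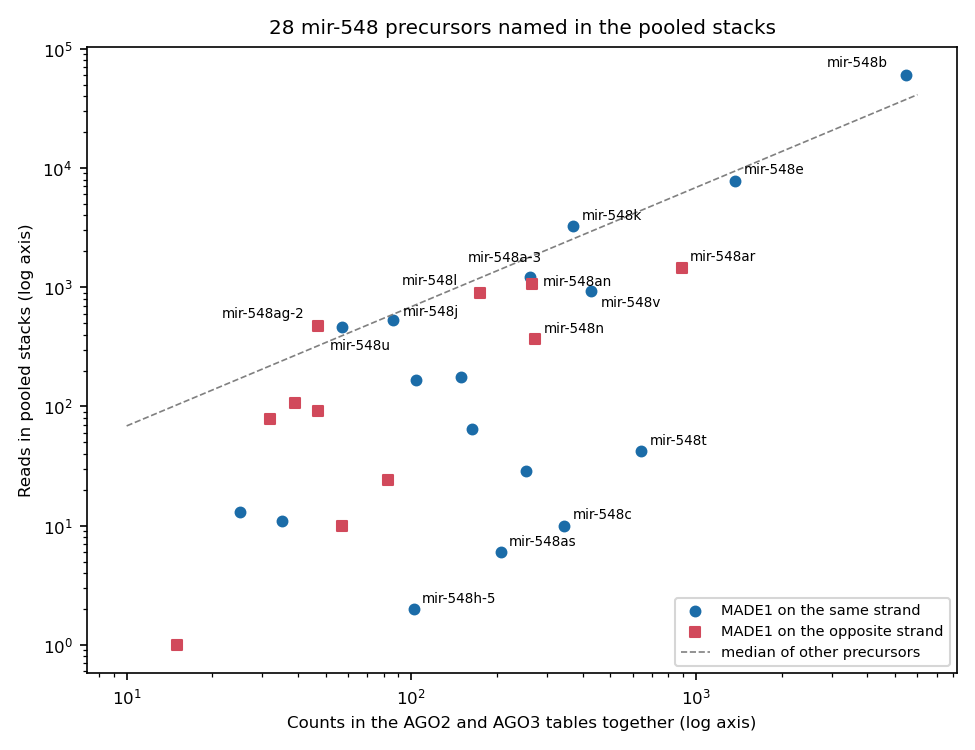
Reads in the pooled stacks (vertical log axis) against counts in both tables together (horizontal log axis) for the 28 members named in a stack, blue circles where MADE1 runs on the strand of the precursor and red squares where it runs on the opposite strand. The dashed line is the median of other precursors, 6.87 stack reads per count. mir-548b lies above the line, and mir-548t, mir-548c, mir-548as and mir-548h-5 lie far below it.

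MADE1 ran on the strand of the precursor in 17 of the 28 members and on the opposite strand in 11. The 17 had 74435 stack reads with a median of 168, and the 11 had 4565 with a median of 107. Among members with at least 100 counts, the 13 on the MADE1 strand had log2 ratios from −2.54 to 0.52 with a median of −0.33. The 4 on the opposite strand (mir-548ar, mir-548an, mir-548n and mir-548l) ran from −1.21 to −0.85 with a median of −1.06, inside the range of the 13.

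Of the 28 members 22 (78.6%) lay in an intron of a coding gene, against 54.6% of 1099 other precursors with a stack. mir-548b lies in FAM184A, with stacks spanning chr6:119390226-119390288. mir-548e lies in SHOC2, a scaffold of RAS signalling, at chr10:112748695-112748761. mir-548ar lies in CDC16, a subunit of the anaphase-promoting complex, at chr13:115009978-115010039, and mir-548k in PPFIA1, which encodes a liprin, at chr11:70130087-70130150. Other hosts were MRE11A, a nuclease of DNA break repair (mir-548l), PRIM2, a DNA primase subunit (mir-548u), CD58, a cell adhesion ligand of T cells (mir-548ac), and LPIN1, a phosphatidate phosphatase (mir-548s). By RefSeq symbol, all 67 members were placed, on 22 chromosomes, with 7 each on chromosomes 6 and 8 and 6 on X. The stack list also gives edits, a field of that name, of which the family had 0.150 per read and other precursors 0.162.

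There were 9 members with a stack on each side of the hairpin. By their counting intervals 8 of them had unequal stack reads on the sides. In some, such as mir-548b and mir-548l, the mapping class also differed between the sides. The part of mapping in these shares was not tested. The same was not worked out for other precursors, so this count does not set the family apart. In mir-548b 59255 reads lay on the 3′ side and 410 on the 5′ side, 99.3% (99.2% to 99.4%), the side of the miR-548b-3p strand shown above. In mir-548e 5398 of the reads lay on the 3′ side and 2424 on the 5′ side, 69.0% (68.0% to 70.0%), and in mir-548v 608 against 326, 65.1% (61.9% to 68.2%). mir-548u had 401 reads on the 3′ side and 65 on the 5′ side, mir-548f-1 had 174 and 1, and mir-548at had 90 and 2. In mir-548aw the sides could not be told apart at this depth, with 62 and 45 reads, 57.9% (48.0% to 67.4%). The reverse held in mir-548l, with 48 reads on the 3′ side and 840 on the 5′ side, 5.41% (4.01% to 7.10%), and in mir-548ao, with 15 and 63, 19.2% (11.2% to 29.7%). The number of reads behind a share thus ran from 78 to 59665. Because the libraries are pooled, these shares cannot be given for AGO2 and AGO3 separately.

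**Figure D4:**
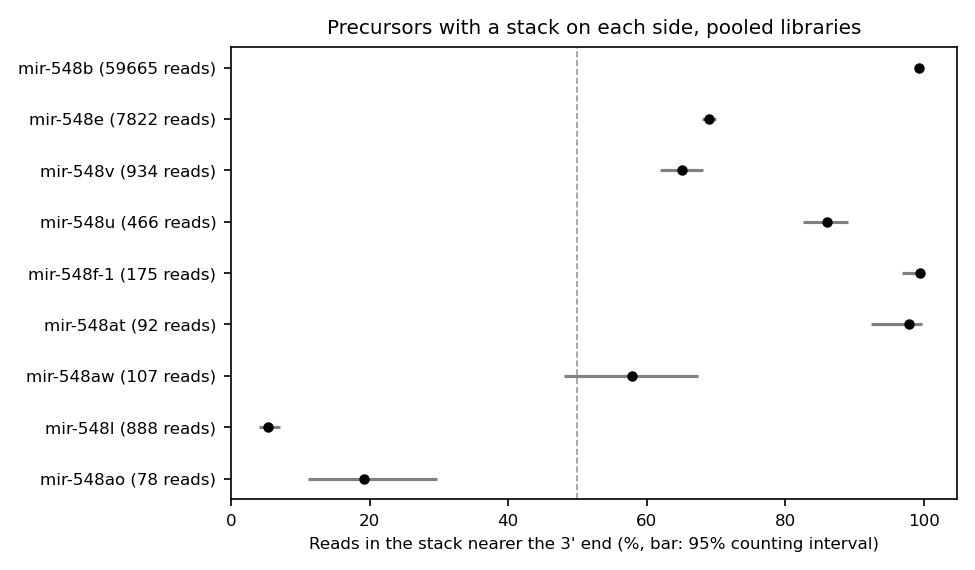
Share of reads in the stack nearer the 3′ end of the precursor, in percent with 95% counting intervals, for the 9 members with a stack on each side in the pooled libraries. The dashed line marks equal reads on both sides. 7 members lie to its right, mir-548aw with an interval that crosses it, and mir-548l and mir-548ao lie to its left.

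The remaining members with a stack had a single one, with a median length of 24 bases. mir-548k and mir-548ar were exceptions, with single stacks of 64 and 62 bases that span both arms, so their sides cannot be separated in the list.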

How the data were processed

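Small RNA from 1 FLAG:AGO2 and 1 FLAG:AGO3 pulldown of HEK293 T-Rex cells was analysed. The deposited tables give 1 count per miRNA precursor for each library, covering the whole hairpin, with the total reads per the file headers. Bowtie2 2.1.0 and hg19 stand in the submitters' processing notes, without a role. Use of the random bases of the 5′ adapter, of strand and of reads matching several precursors is not stated in the labels or headers. The deposited stack list gives a count of reads per stack, pooled over libraries, and a score by the authors that was not used.

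A precursor absent from a table was given a count of 0. Each log2 ratio divides a precursor's share of the AGO3 table by its share of the AGO2 table, after adding 0.5 counts in proportion to library size. The 95% interval was derived by the Clopper-Pearson method from the fraction of a precursor's counts that were AGO3. Totals were 3485257 and 3055417 counts, and a count of 0 allows 3 counts, 8.61e-05% and 9.82e-05%. Called means at least 2-fold with at least 100 counts. The members and lists, drawn from general knowledge, were chosen with earlier results of these data known. Members named have at least 100 counts, are among the 10 most counted, have 1 of the 5 highest or 5 lowest ratios from 20 counts up, are copies of the 3 most counted lettered names, or have at least 100 stack reads. The 3 other MADE1 precursors and the 4 most counted of the other transposon list are also named. Host genes and the remaining low-count members with a stack on each side were named after their values were seen. Stacks were matched by the precursor name on their own strand. Arms were paired at the best ungapped offset. Mature sequences on chromosome 8 were left out, so none of the 7 members there has one here. The family's seed, motif and base values cover only the 46 of 67 members with a mature sequence here. Beside these 7, members on other chromosomes, such as mir-548d-2 and mir-548aa-2, are thus also missing. The arm values cover the 12 members with both arms listed. The comparison sequences come from the same list.

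Alternatives were median-of-ratios and TMM scaling (edgeR 4.0.16), scaling to all reads, minimums of 1, 20 and 50 counts, a pseudocount of 1, and copies or shared intervals summed. The computation was tested on simulated counts. The tools were R 4.3.3 and Python 3.11.15 with scipy 1.17.1, pandas 2.3.3, matplotlib 3.10.9 and numpy 2.4.6.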

Additional observations from a re-analysis of the deposited data

Results flagged for a closer look

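Reads of the family also occur outside the count tables. In the pooled stacks mir-548ay, which is in neither table, had 112 reads on an LTR43 element with no MADE1 annotation, and mir-548ba, also in neither table, had 25 reads on a MADE1 element. The strand opposite to mir-548t carried 21 reads, beside 42 on its own strand. MADE1 elements with no named precursor held 9916 reads, 10.3% of the 96522 reads on MADE1 elements, where named mir-548 precursors held 81.9% and mir-570, mir-579 and mir-603 held 7.83%. The list has no control library, and no background level for these reads was tested. Whether they come from AGO2 or AGO3 cannot be told in the pooled list.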

How the results depend on the processing

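Other choices left the family below equal shares in AGO3, and moved the size. The family's log2 ratio was −0.60 by median-of-ratios scaling, −0.57 by TMM scaling, −0.087 scaled to all reads, −0.47 without mir-548b and −0.47 without mir-548d and mir-548aa. Its share of all reads was 0.219% in AGO2 and 0.206% in AGO3. The median member ratio was −0.67, −0.64 and −0.16 under the 3 scalings in that order and −0.54 with a minimum of 20 counts. Members at least 2-fold lower numbered 14 by median of ratios, 14 by TMM and 4 by all reads, and 18 of 61 with a minimum of 20 counts and 19 of 67 with none, where 10.8% and 18.7% of all precursors were as low. Members at least 2-fold higher numbered 1 with a minimum of 20 or 50 counts and 3 with none, against 0, where 115 of 638, 86 of 504 and 242 of 1038 (23.3%) of all were as high. The summed other transposon list was −0.16 by median of ratios and −0.13 by TMM. Without mir-548b the family held 0.0282% of stack reads. The scaling to all reads and the choices without mir-548d and mir-548aa, of summed intervals and of stacks without mir-548b were added after seeing the data. For single members and groups, 167 values were compared under median-of-ratios and TMM scaling and, for members only, a pseudocount of 1 or summed intervals. Of these, 146 stayed within their counting interval and 21 did not, which under the scalings depends on the width of the interval. Among values at least 2-fold apart, 0 changed sign. The scalings could not have changed such a sign, since they shift ratios by only −0.19 and −0.16. Scaling to all reads, which shifts ratios by 0.33, was not among the choices compared, nor were the count minimums. No paired analysis was possible because each protein has 1 library.

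With 1 library per protein, intervals cover counting error only and not the spread between cultures. Depth limits most members under 100 counts. How reads of near-identical copies were divided was not tested.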

Other observations

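MADE1 elements outside any named precursor were covered by 804 stacks with a median of 2 reads, 343 of them with a single read. The element ran on the strand of the stack in 398 and on the opposite strand in 406. At least 100 reads were found in 18 of the stacks, which held 4786 reads or 48.3% of the total and were 23 to 63 bases long with a median of 24.5. The largest, with 1560 reads, lay in an intron of RGL1, which encodes a Ral guanine nucleotide exchange factor, at chr1:183752481-183752504 (hg19). It was followed by 1 of 799 reads and 63 bases in WRN, a helicase of DNA repair, 1 of 240 reads at chr3:197750688-197750710, and 1 of 208 reads in COL4A4, a basement membrane collagen. A stack of 124 reads lay in an intron of DROSHA, the nuclease that cuts miRNA precursors from their transcripts. In HHAT, a pair of stacks with 154 reads each lay at chr1:210814769-210814795 and chr1:210814804-210814828 on the same strand. The stacks named here were chosen after their values were seen, and the libraries in them are pooled.

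Of the other MADE1 precursors, mir-579 in ZFR had 5064 stack reads, mir-570 had 2488 and mir-603 had 5, against a median of 138 over the 28 mir-548 members with a stack.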
